A study of Mus musculus with 4 samples.

Results

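The facilitative hexose transporters of the Slc2a family were followed in differentiating C2C12 cells, a mouse myoblast line that leaves the cell cycle and forms myotubes when serum is lowered. The members were 10 genes, Slc2a1, Slc2a3, Slc2a4, Slc2a5, Slc2a6, Slc2a8, Slc2a9, Slc2a10, Slc2a12 and Slc2a13, of 18193 genes with a probe set that carries only their symbol. They were chosen by symbol, and 19 probe sets of 34945 belonged to them. For each gene the probe set with the highest mean signal over the 4 arrays was taken as the main one, so brightness was the measured value that the choice of probe set used. The family was picked with the differences of Slc2a6 and Slc2a1 already known. Their differences between inhibitor and vehicle arrays are therefore a description, given with a standard error and no p.

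All cells were kept in DMEM with 25 mM glucose, grown with 10% fetal bovine serum and induced to differentiate in 2% horse serum. Vehicle was given to the cells of 2 arrays, tranylcypromine (TC) to those of 1 and S2101 to those of 1. The labels call both compounds LSD1 inhibitors. LSD1, the product of Kdm1a, removes methyl groups from histone H3. Cells were collected for RNA after 48 h. No dose is given in the labels, so TC and S2101 are set side by side as arrays and not as compounds at matched doses. The labels do not tell whether each array had a culture of its own, so errors and p-values cover the spread between these 4 samples alone, and that spread may be technical. Of 11 skeletal muscle markers 10 were bright enough to test, among them Myog, Acta1 and Myh3, and the fetal myosin gene Myh8 was not. The target gene Kdm1a had signals of 5537 and 5202 with vehicle, 4990.2 with TC and 4862 with S2101. It did not pass the test between inhibitor and vehicle arrays (log2 difference -0.12 ± 0.07 SE; adjusted p = 0.343, limma).

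Slc2a proteins are membrane carriers that let sugars move down their concentration gradient without spending energy. GLUT1 (Slc2a1) serves basal glucose uptake in most cells, and GLUT4 (Slc2a4) is the carrier that insulin and contraction bring to the surface of muscle fibres. Other members work inside the cell or carry fructose, urate, dehydroascorbate or myo-inositol. Myoblasts rely mainly on GLUT1, and GLUT4 becomes the main carrier of mature muscle.

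The genes with the largest differences among members bright enough to test, Slc2a6 and Slc2a1, differed in opposite directions, so the sequence around their start sites is shown (RefSeq, GRCm38.p6, 250 bases before to 50 after the start, 5′ to 3′ on the gene's strand). Capitals mark the core of a GC box, spelled GGGCGG, and the E-box core that basic helix-loop-helix proteins such as MyoD can bind, spelled CANNTG. Both strands were searched.
Slc2a6, chr2:27027949-27028248, minus strand: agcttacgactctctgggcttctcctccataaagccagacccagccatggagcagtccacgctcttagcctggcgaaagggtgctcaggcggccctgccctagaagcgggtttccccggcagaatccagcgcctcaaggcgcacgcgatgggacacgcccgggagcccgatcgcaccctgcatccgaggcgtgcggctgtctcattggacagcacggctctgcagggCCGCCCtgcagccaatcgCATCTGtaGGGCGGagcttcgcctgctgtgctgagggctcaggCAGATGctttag
Slc2a1, chr4:119108495-119108794, plus strand: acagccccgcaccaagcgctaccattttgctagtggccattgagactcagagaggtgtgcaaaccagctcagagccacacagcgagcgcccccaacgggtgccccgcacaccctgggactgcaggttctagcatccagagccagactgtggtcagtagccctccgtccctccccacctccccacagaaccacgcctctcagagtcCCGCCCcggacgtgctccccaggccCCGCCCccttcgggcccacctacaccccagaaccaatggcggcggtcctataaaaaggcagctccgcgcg
The Slc2a6 window held 2 GC boxes and 2 E-boxes, and the Slc2a1 window held 2 GC boxes and 0 E-boxes. Over 32851 promoter windows of the same length, 35.7% held a GC box and 72.3% an E-box. The E-box form CACGTG, which the E-box core above includes, was in neither window and in 7.15% of all. The AP-1 site TGACTCA was in neither and in 5.20% of all. Windows were matched for 8 of the 10 genes, not for Slc2a3 and Slc2a4. A match is only a run of letters, and binding was not measured here.

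Slc2a6 encodes GLUT6, a carrier held mainly on lysosomal membranes. Its only probe set (1434015_at) gave signals of 328 and 303 on the vehicle arrays, 1112 with TC and 1007 with S2101. The vehicle arrays lay close together at 316 ± 18.0 (SD, n = 2), and both inhibitor arrays stood far above them with no overlap. Signal was 3.52 times the vehicle mean with TC and 3.19 times with S2101, and the 4 pairings of an inhibitor with a vehicle array gave ratios from 3.07 to 3.67. On the log2(signal + 50) scale, which lowers the weight of dim signals, the difference of the inhibitor arrays from vehicle was 1.60 ± 0.11 (SE). It ranked 10 from the top among 9097 genes tested, 8 for TC alone and 9 for S2101 alone. The TC and S2101 comparisons share the vehicle arrays. With an offset of 250 in place of 50 the difference was 1.21, and with 10 it was 1.71.

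Between TC and S2101 the Slc2a6 difference was 0.14 on the log2 scale (95% interval -0.21 to 0.48; adjusted p = 0.836, limma). A difference between these arrays was not detectable, and the interval leaves room for one in either direction. Leukocytes also express Slc2a6. Of 8 leukocyte markers only Cd14, with a mean signal of 385, was bright enough to test. Csf1r had a mean of 130 and Adgre1 of 78.9, and the lowest were Ptprc with 10.6 and Itgam with 13.8. The summed signal of the 8 markers was 713 and 755 with vehicle, 576 with TC and 787 with S2101. It was thus lower with TC and higher with S2101 than on either vehicle array. Cd14 was the largest part of the sum, at 338 and 409 with vehicle, 354 with TC and 438 with S2101. The cultures were of a myoblast line, and a part of leukocytes in the Slc2a6 difference was not tested.

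Slc2a1 encodes GLUT1, the carrier of basal glucose uptake. Its main probe set (1434773_a_at) read 3217 and 3215 with vehicle, 2495 with TC and 2347 with S2101. Both inhibitor arrays lay below both vehicle arrays, at 0.776 and 0.730 of the vehicle mean, and the log2 difference was -0.40 ± 0.07 (SE). In RNA from whole cultures, fewer cells of a type and less RNA per cell cannot be told apart.

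The other Slc2a1 probe sets were also bright and lay the same way. The second (1426599_a_at) read 1896 and 1927 with vehicle, 1727 with TC and 1400 with S2101, and the third (1426600_at) 1014 and 956, 869 and 687. Both were lower with each inhibitor, and in both the S2101 array was the lowest of the 4. For S2101 the 3 probe sets gave log2 differences of -0.45, -0.44 and -0.49. For TC they gave -0.36, -0.14 and -0.17, so the TC value depends on the probe set. In the main probe set the difference of TC from S2101 was 0.09 (95% interval -0.12 to 0.29; adjusted p = 0.823, limma), and in the other probe sets it was 0.29 and 0.32. Averaged over probe sets, the log2 difference of Slc2a1 between inhibitors and vehicle was -0.34.

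Dividing cells take up much glucose through GLUT1. Of their markers 5 were measured, Mki67, Top2a, Pcna, Mcm5 and Birc5. The summed signal was 16444 and 16021 with vehicle, 11840 with TC and 10505 with S2101, lower with both inhibitors as was Slc2a1. Pcna made up most of the sum and had a log2 difference of -0.31. Mki67, Top2a, Mcm5 and Birc5 differed more, by -0.94, -0.93, -0.95 and -0.97. The part of dividing cells in the Slc2a1 difference was not tested.

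Slc2a8 encodes GLUT8, an intracellular carrier with a sorting signal for endosomes and lysosomes. It read 280 and 353 with vehicle, 406 with TC and 344 with S2101. The S2101 array lay between the vehicle arrays, which themselves differed 1.26-fold, and TC lay above both. The log2 difference of 0.22 ± 0.15 (SE) did not pass the test (adjusted p = 0.439, limma). It was 0.07 without vehicle 1 and 0.36 without vehicle 2. TC minus S2101 was 0.21 (95% interval -0.25 to 0.67; adjusted p = 0.813, limma).

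These 3 genes were the members bright enough to test, the filter being a mean signal at or above that of the median gene, 178.8. Just inside stood Slc2a8 with a mean of 345 and just outside Slc2a4 with 110. The inhibitor-vehicle calls of Slc2a6 and Slc2a1, which drew attention to the family, are not used. Of all 9097 genes tested, 8.01% passed with both inhibitors against vehicle (4.28% higher, 3.74% lower; limma, Benjamini-Hochberg 0.05), 8.18% for TC alone (4.36% higher, 3.81% lower) and 6.71% for S2101 alone (3.37% higher, 3.33% lower). No tested member passed between TC and S2101 in the limma fit (0.033% of all, the 3 genes Abca1, Dnajc17 and Ube2d2a, all lower with TC and named here after their values were seen; 792 of all genes had an unadjusted p under 0.05, of the members 0). Both inhibitor arrays lay beyond both vehicle arrays for 2 of the 3 tested members, and for 51.1% of all genes tested (27.6% above, 23.4% below). The 2 members are Slc2a6 and Slc2a1, whose differences were known when the family was picked, so their count supports nothing.

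**Figure D1:**
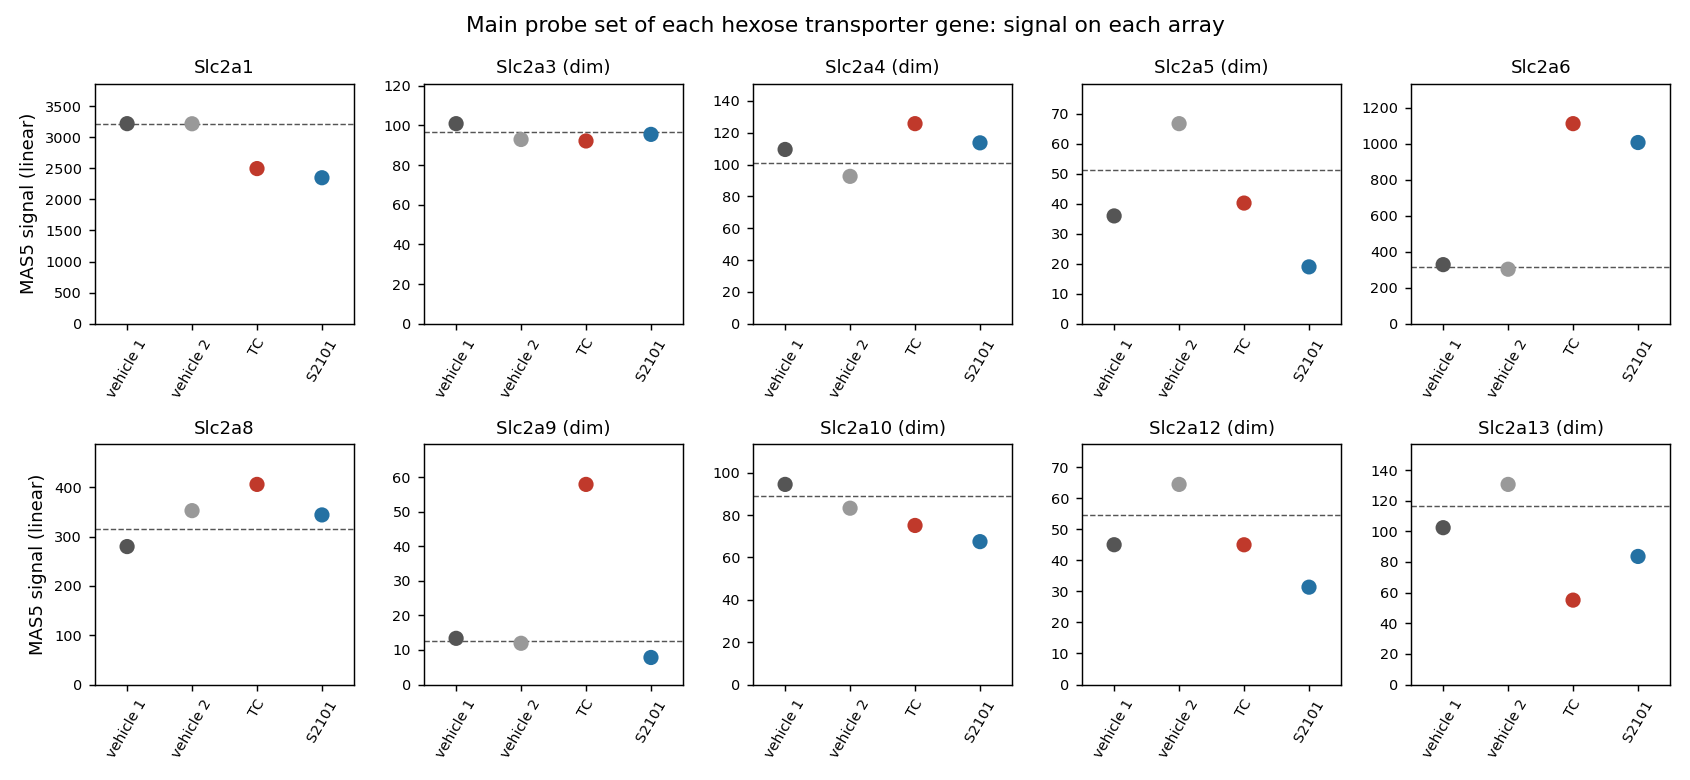
MAS5 signal (linear, each panel from 0 on its own scale) of the main probe set of each of the 10 genes on the vehicle 1, vehicle 2, TC and S2101 arrays, 1 point per array, with a dashed line at the vehicle mean. Slc2a6 stands at 328 and 303 with vehicle and at 1112 and 1007 with the inhibitors, and Slc2a1 at 3217 and 3215 and at 2495 and 2347, while panels marked dim have mean signals under 178.8.

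The other 7 members were dim, with mean signals of their main probe sets from 22.7 to 110. Probe sets of 4 liver markers, which muscle cells are not known to express, had means from 10.9 to 21.5. Over the 14 dim probe sets of the family the higher vehicle array was 1.09 to 12.6 times the lower, with a median of 1.39, against 1.0005 to 1.26 times in the 5 bright ones. In a fit of all 18193 genes with no brightness filter, none of the 7 passed for inhibitors against vehicle (limma adjusted p from 0.433 to 0.974; 0 of the 7 had an unadjusted p under 0.05, against 2580 genes in all). The 7 include Slc2a9, whose TC signal decided which of its probe sets was the main one, so its p there is no fair test. With signals this close to background, failing the test does not show that a gene did not differ.

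Slc2a4 encodes GLUT4, the insulin-responsive carrier of muscle and fat. Its main probe set read 109 and 92.6 with vehicle, 126 with TC and 114 with S2101. Both inhibitor arrays were above both vehicle arrays, but the log2 difference of 0.17 ± 0.20 (SE) was within its error. The second probe set, with a mean of 12.6, differed the other way (-0.14). Slc2a3 encodes GLUT3, the high-affinity carrier typical of neurons. It stood at 101 and 92.9 with vehicle, 92.1 with TC and 95.5 with S2101. All 4 arrays were close, and the log2 difference was -0.03 ± 0.20 (SE). Its other 3 probe sets, with means of 66.5, 31.5 and 8.91, gave 0.24, 0.10 and -0.30, so neither size nor direction was settled.

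Slc2a13 encodes HMIT, a carrier that moves myo-inositol together with protons. It read 102 and 131 with vehicle, 55.1 with TC and 83.6 with S2101, so both inhibitor arrays were below both vehicle arrays. Its log2 difference of -0.49 ± 0.23 (SE) was the lowest of the 10 main probe sets and did not pass (adjusted p = 0.433, limma with no filter). With an offset of 10 it was -0.69 and with 250 it was -0.20. Slc2a10 encodes GLUT10, which carries dehydroascorbate and glucose inside cells. It read 94.5 and 83.2 with vehicle, 75.1 with TC and 67.5 with S2101 (-0.19 ± 0.20 SE), and a second probe set with a mean of 20.6 was lower as well (-0.36).

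Slc2a12 encodes GLUT12, a glucose carrier found in muscle and heart. It gave 45.0 and 64.5 with vehicle, 45.0 with TC and 31.4 with S2101 (-0.25 ± 0.21 SE). TC barely left the vehicle range, and the vehicle arrays of its second probe set, 3.70 and 46.8, were 12.6-fold apart. Slc2a5 encodes GLUT5, the fructose carrier. It read 35.9 and 66.6 with vehicle, 40.2 with TC and 18.9 with S2101, so TC fell between the vehicle arrays and S2101 below them.

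Slc2a9 encodes GLUT9, which carries urate. Its brighter probe set read 13.4 and 11.9 with vehicle, 57.9 with TC and 7.82 with S2101, and its second 16.3 and 36.6, 1.95 and 23.1. The TC array was thus the highest of the 4 in one probe set and the lowest in the other. On every array but TC the second read higher, so the first was the brighter only through its TC signal. The log2 difference of TC from vehicle was 0.78 in the first, -0.54 in the second and 0.12 with both averaged. Because the TC signal decided which probe set was the main one, that difference gets no test.

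**Figure D2:**
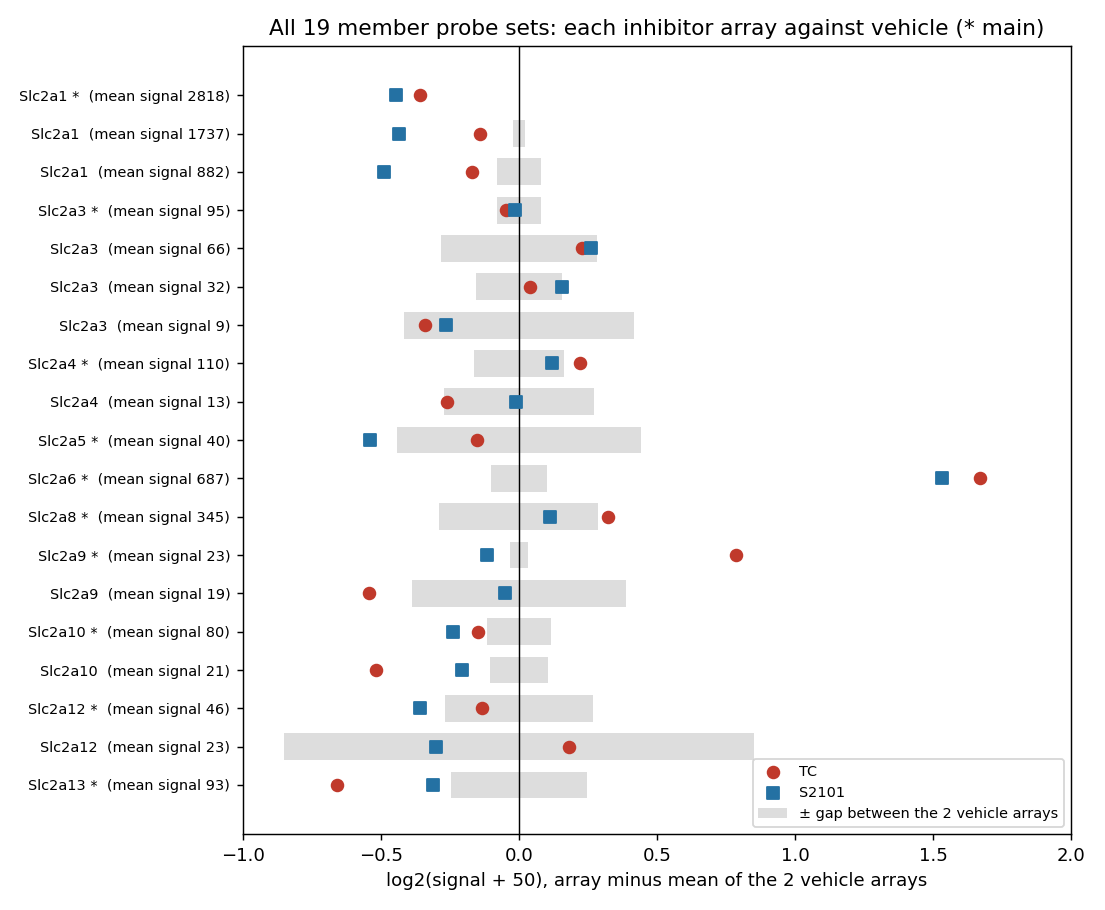
Difference of the TC array (circles) and the S2101 array (squares) from the mean of the 2 vehicle arrays, in log2(signal + 50), for all 19 probe sets of the family, with the main one starred and the mean signal beside each name. Grey bars span the gap between the vehicle arrays to either side of 0. Slc2a6 lies near 1.6 for both inhibitors, all 3 Slc2a1 probe sets lie left of 0, and the 2 Slc2a9 probe sets put TC on opposite sides.

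Across the 10 main probe sets, 4 differences were positive and 6 negative, with a median of -0.11, and the median of all 18193 genes was -0.01. The positive ones include Slc2a9, whose main probe set was decided by its TC signal. Both inhibitor arrays lay beyond both vehicle arrays for 6 of the 10 genes, 2 above (Slc2a4 and Slc2a6) and 4 below (Slc2a1, Slc2a10, Slc2a12 and Slc2a13). Of all genes 43.2% did so, 21% above and 22.2% below, and the family's count is read against that background. That count includes Slc2a6 and Slc2a1, whose differences were known when the family was picked. Of the 6 genes with several probe sets, all probe sets pointed the same way for Slc2a1, Slc2a10 and Slc2a12 and not for Slc2a3, Slc2a4 and Slc2a9.

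The genes with profiles most like those of Slc2a6 and Slc2a1 were found by Euclidean distance over the 4 arrays in log2(signal + 50) less the vehicle mean. Nearest to Slc2a6 were Syngr1, a synaptic vesicle protein gene (distance 0.17), Fam107a (0.18), the sterol reductase gene Tm7sf2 (0.33) and the mitochondrial protein gene Chchd10 (0.42). Syngr1 read 123 and 117 with vehicle, 553 with TC and 460 with S2101, but its other bright probe set differed by 0.08 only. Fam107a read 112 and 99.2 with vehicle, 387 with TC and 397 with S2101, and its dim probe sets differed by 0.94 and -0.11. The other bright probe set of Chchd10 differed by 1.05, against 1.86 in its main one. The vehicle signals of Syngr1 and Fam107a were below 178.8. Both genes were thus among those tested only through the inhibitor arrays and had to be higher there. Nearest to Slc2a1 were Fkbp9, a prolyl isomerase gene (distance 0.02), the transcriptional regulator Lmo4 (0.03), the tyrosine sulfotransferase gene Tpst1 (0.03) and Jpt2 (0.04). Fkbp9 read 11042 and 10994 with vehicle, 8489 with TC and 8032 with S2101, and its other bright probe set differed alike (-0.39 against -0.41). Chosen for likeness, these genes get no test.

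**Figure D3:**
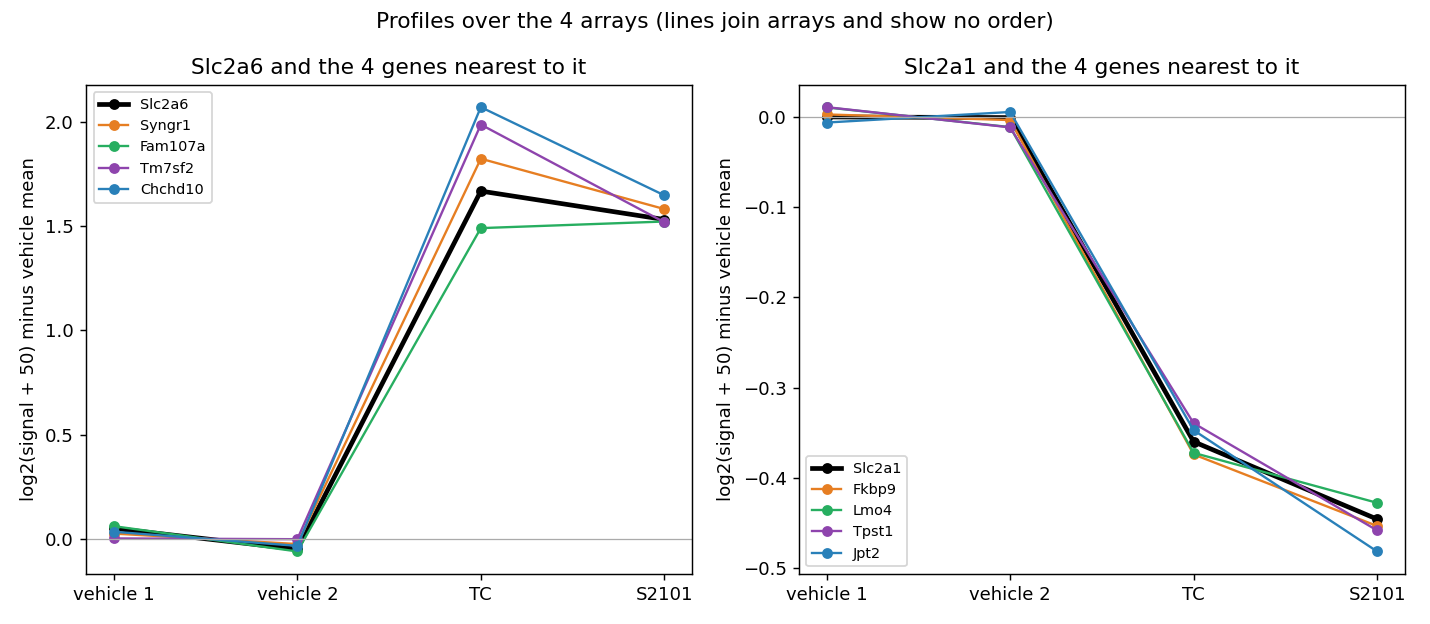
Log2(signal + 50) less the vehicle mean on each array for Slc2a6 (left, thick black) and Slc2a1 (right, thick black) with the 4 genes nearest to each. Lines only join the arrays of a gene. The Slc2a6 group stands between about 1.49 and 2.07 on the inhibitor arrays, and the Slc2a1 group between -0.34 and -0.48.

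Genes that work with the transporters were followed in 8 lists. Most of their tested members did not pass between inhibitors and vehicle (limma, Benjamini-Hochberg 0.05 over all 9097 genes, of which 8.01% passed with a median log2 difference of 0.01). Of 28 tested genes of insulin signalling and GLUT4 vesicle traffic, 3 rose, 25 did not pass, and the median was 0.07. Sort1, the sorting receptor that helps form GLUT4 vesicles, rose from 215 and 203 to 388 with TC and 359 with S2101 (log2 difference 0.71 ± 0.14 SE; adjusted p = 0.0113, limma). Pik3r1, the regulatory subunit of PI3-kinase, rose by 0.46 ± 0.09 (0.0149), and the insulin receptor Insr by 0.38 ± 0.10 (0.0401). Single arrays decided some of these calls. Sort1 did not pass without TC (adjusted p = 0.0614, limma), Pik3r1 without vehicle 2 (0.0700) or S2101 (0.0571), and Insr without any 1 of the 4 arrays (0.0590 to 0.196). Averaged over its probe sets, of which 2 were dim, Insr stood at -0.024. The list had 1 gene that rose without vehicle 2, TC or S2101 and 2 without vehicle 1. With no brightness filter none of the 3 passed (Sort1 0.0968, Pik3r1 0.0786, Insr 0.113; limma over 18193 genes). With averaged probe sets or without an intensity trend in the variance Sort1 alone passed, and at the 75th percentile filter, where Sort1 and Insr were too dim to test, Pik3r1 alone.

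Among 14 tested regulators of transporter genes and uptake, Myc, a transcription factor known to raise Slc2a1, fell from 653 and 630 to 378 with TC and 397 with S2101 (log2 difference -0.66 ± 0.11 SE; adjusted p = 0.00526, limma), and 13 did not pass. The median was 0.02. Txnip, an arrestin-like protein that promotes removal of GLUT1 and GLUT4 from the surface, stood at -0.25 ± 0.08 (adjusted p = 0.0884, limma). Its difference was -0.32 without TC, -0.18 without S2101 and -0.061 with averaged probe sets. With arrays blocked by the numbers in their descriptions Txnip passed (adjusted p = 0.0487, limma). The muscle factor Mef2a, an activator of Slc2a4, stood at 0.17 ± 0.09 (adjusted p = 0.291, limma). For Mef2a the difference was 0.05 without TC, 0.30 without S2101 and 0.15 with averaged probe sets, and its call was not the same at every setting. Txnip and Mef2a were named after their values were seen. Whether Myc had a part in the Slc2a1 difference was not tested.

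Of 14 tested genes that bring hexoses into metabolism, 1 rose, 1 fell, 12 did not pass, and the median was 0.04. Gyg, the glycogenin that primes glycogen, rose from 2951 and 3022 to 4229 and 3886 (0.43 ± 0.08 SE; adjusted p = 0.0060, limma), and its other probe set gave 0.65. Pgm3, an enzyme of UDP-N-acetylglucosamine synthesis, fell from 464 and 458 to 323 and 239.9 (-0.64 ± 0.15; 0.0270), a call that ended with no brightness filter (0.148) and without vehicle 1 (0.0551) or S2101 (0.0982). Gfpt1, the entry enzyme of the same route and named after its value was seen, stood at -0.28 ± 0.10 (adjusted p = 0.106, limma). Its difference was -0.41 without TC, -0.16 without S2101 and -0.036 with averaged probe sets. With arrays blocked by the numbers in their descriptions Gfpt1 passed (adjusted p = 0.0354, limma).

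Lists for the special cargoes were mostly quiet. In the urate list 4 genes were tested. One of them, Xdh, the xanthine dehydrogenase that makes urate, read 72.5 and 126 with vehicle, 378 with TC and 451 with S2101 (log2 difference 1.66 ± 0.20 SE). Both vehicle signals were below 178.8, so Xdh entered the test only through the inhibitor arrays and had to differ, and its call there supports nothing. In the fit with no filter, of 13 genes of the list Xdh alone passed (adjusted p = 0.0337, limma). The other 3 tested genes did not pass. In the myo-inositol list 1 of 5 rose, the sodium-coupled carrier Slc5a3, from 1575 and 1773 to 2275 and 2264 (0.43 ± 0.09; 0.0123, limma), and the list's median was -0.08. That call ended with averaged probe sets, where the difference was 0.22 (adjusted p = 0.314, limma), with no filter (0.0628), without an intensity trend (0.0574) and without vehicle 1 (0.0976). None of 5 tested genes of vitamin C transport passed (limma; 0 with an unadjusted p under 0.05; median 0.11), nor did any of 10 AMPK genes (0; median 0.02). In the vitamin C list Slc23a2, a vitamin C carrier, stood at 0.19 and Gsto2 at 0.13. In the AMPK list Camkk2 stood at -0.19 ± 0.11 (SE). Its other bright probe sets gave -0.38 and -0.19, and its dim one 0.08. Strada, a partner of the AMPK kinase LKB1, stood at -0.34 ± 0.22 (SE). Strada read 283 and 163 with vehicle, 170 with TC and 151 with S2101, so only vehicle 1 was above the brightness filter. Without vehicle 1 its difference was -0.015. Of 4 tested other sugar carriers none passed (limma, 2 with an unadjusted p under 0.05, median 0.07). Slc45a4 stood at 0.30 and Slc37a3 at 0.22, but with averaged probe sets at 0.08 and 0.13. The other bright probe set of Slc37a3 gave 0.05.

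**Figure D4:**
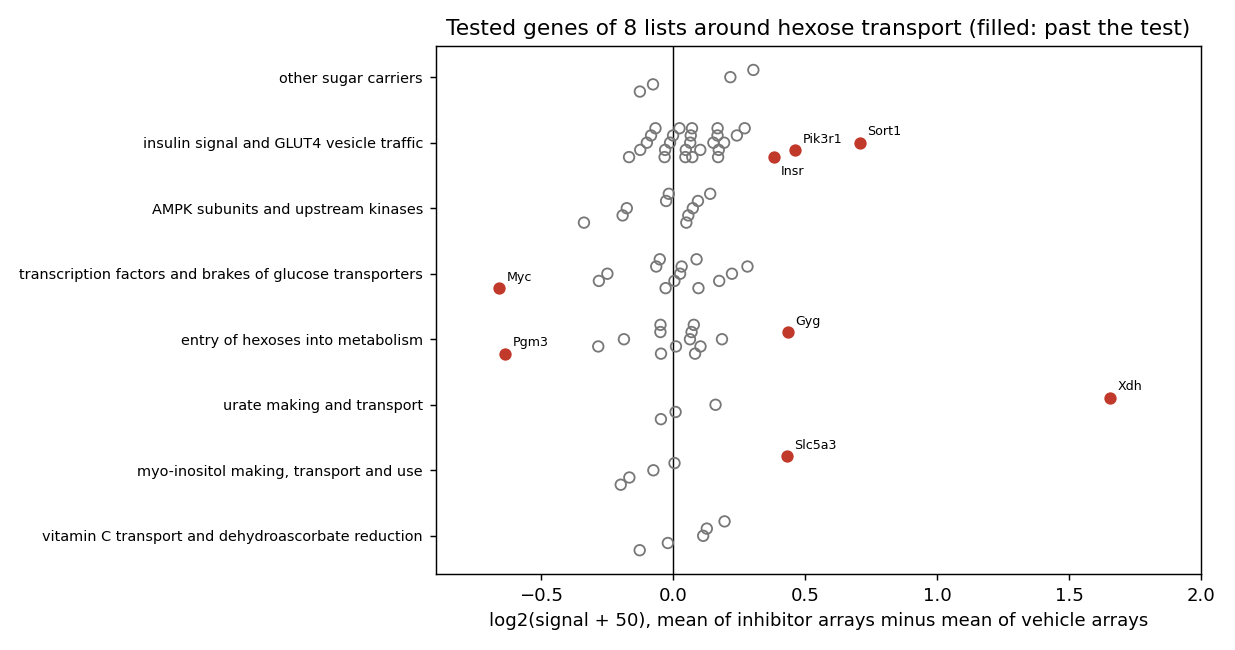
Log2 difference of the mean of the inhibitor arrays from the mean of the vehicle arrays for each tested gene of 8 lists around hexose transport, 1 point per gene, filled and named where it passed the test. Xdh, whose vehicle signals were below the brightness filter, lies farthest right at 1.66 and Myc farthest left at -0.66, and most points are open and lie near 0.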

How the data were processed

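Gene expression was measured on 4 Affymetrix arrays, 1 per sample, from 250 ng of total RNA each. The deposited values are linear signal intensities per probe set, made by the authors with MAS5 and Affymetrix Expression Console per the submitters' processing notes. Program versions were not given in the sources used here. Each array had the same 2% trimmed mean. Precision is limited by how few arrays there are. Probe sets with exactly 1 symbol in the platform annotation were used (34945 of 45101), the brightest per gene. Genes with a mean at or above the median gene (9097 of 18193) were tested on log2(signal + 50) with R 4.3.3 and its package limma 3.58.1 (lmFit, then eBayes with an intensity trend, Benjamini-Hochberg). TC and S2101 were set as 1 group against vehicle (2 residual degrees of freedom, prior 8.08). A fit with 3 groups (1 residual, prior 8.37) gave each alone and assumes that lone arrays vary like vehicle. An exact permutation test of 2 against 2 cannot go below p = 0.333 (two-sided). The fits were also run on simulated data with independent noise and the same effect in both inhibitor arrays. Those settings match what the fits assume, so the runs cannot tell how well they hold for these arrays.

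The members and lists were chosen with earlier results of these data known. Named genes were all members, the 4 profiles nearest to each of the 2 tested members that differed most, Kdm1a, and per list up to 4 genes past the test or else the 2 largest differences; exceptions are stated. Alternatives were other offsets (10, 250), filters (none, 75th percentile), averaged probe sets, quantile or median scaling, no intensity trend, each array left out, and a block on the numbers in the descriptions.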

Additional observations from a re-analysis of the deposited data

How the results depend on the processing

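Slc2a6 stayed higher and Slc2a1 lower with the inhibitors at every setting run. Slc2a6 ranged from 1.21 (offset 250) to 1.71 (offset 10) and Slc2a1 was -0.34 with averaged probe sets. Of 315 alternative values of dim members, 44 moved by more than the vehicle SD, mostly with the offset or averaging. Insr turned to -0.024 with averaged probe sets. The count of genes past the test for inhibitors against vehicle (729) was 266 with no filter, 457 at the 75th percentile, 478 with averaged probe sets and 423 without a trend, and from 501 to 749 with 1 array left out. For TC (744) it was 12 with no filter and 83 without a trend, and for S2101 (610) it was 8 and 112. Between TC and S2101 (3) it was 22 with averaged probe sets, 13 with quantile scaling, 10 with median centring, 0 with no filter (limma; 1069 with an unadjusted p under 0.05) and 0 without a trend (691). The causes were not tested. With the replicate block, pairing arrays by the numbers in the descriptions, 1223 genes passed. Deviations of same-numbered arrays correlated at 0.07 across genes. In the inhibitor arrays the number also marks the compound, so this value cannot tell whether same-numbered arrays belong together. Without either vehicle array the fit with 3 groups has no residual degrees of freedom and gave values with no test.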
